A study of Mus musculus with 18 samples.

Results

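Expression of 10 enzymes of serine synthesis and folate-dependent one-carbon metabolism was examined in whole mouse lungs of the embryonic stage 14.5 dpc (days post coitus). The enzymes were chosen by symbol from the 23420 rows of each expression table, and each symbol was found in all 3 tables. They fall into 3 serine synthesis enzymes (Phgdh, Psat1, Psph), 4 mitochondrial folate enzymes (Shmt2, Mthfd2, Mthfd1l, Aldh1l2) and 3 cytosolic folate enzymes (Shmt1, Mthfd1, Tyms). There were 3 mouse lines with 3 deficient and 3 littermate control samples each, 18 samples in all. Deficient lungs were Rptorf/f; ShhCre/+, Tfamf/f; ShhCre/+ or Cox10f/f; ShhCre/+, and their controls were Rptorf/+; ShhCre/+, Tfamf/+; ShhCre/+ or Cox10f/+; ShhCre/+. These control genotypes are those of the study's methods, while a figure legend of the study names the controls only as ShhCre/+. Every sample thus carried a Cre allele at the Shh locus and, by the methods, at least 1 floxed allele. Rptor encodes a subunit of mTOR complex 1 (mTORC1), Tfam maintains and transcribes mitochondrial DNA, and Cox10 is needed to assemble cytochrome c oxidase. Shh-Cre acts in the epithelium, while the RNA came from the whole lung, so a value sums over epithelial and all other cells.

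Serine is made from a glycolytic intermediate by PHGDH, PSAT1 and PSPH in turn. Serine hydroxymethyltransferases, SHMT1 in the cytosol and SHMT2 in mitochondria, pass a carbon from serine to tetrahydrofolate and release glycine. In mitochondria MTHFD2 oxidizes this carbon unit, MTHFD1L releases it as formate for export and ALDH1L2 oxidizes it to carbon dioxide. In the cytosol the single enzyme MTHFD1 carries the carbon between oxidation states for purine and methionine synthesis, and TYMS uses it to make thymidylate. Several of these genes are known targets of ATF4, a transcription factor of the integrated stress response that mTORC1 also regulates.

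The upstream sequences of a pair of members are shown here because their expression followed different patterns. Mthfd2 moved in opposite directions in the Rptor and Tfam lines, and Tyms was lower in both. Each run is the 250 bases before the start site in RefSeq (GRCm38.p6), on the minus strand and written 5′ to 3′, from chr6:83317605-83317854 for Mthfd2 and chr5:30073626-30073875 for Tyms. In the GENCODE annotation the Mthfd2 gene reaches to base 83325908, so its run lies inside that gene, while the Tyms run lies outside Tyms. Capitals mark a match to the E-box CACGTG.
Mthfd2: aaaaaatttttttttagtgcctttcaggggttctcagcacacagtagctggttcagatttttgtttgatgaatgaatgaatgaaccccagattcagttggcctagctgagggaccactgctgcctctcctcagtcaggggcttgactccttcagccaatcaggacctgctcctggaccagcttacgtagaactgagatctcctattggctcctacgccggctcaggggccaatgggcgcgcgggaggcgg
Tyms: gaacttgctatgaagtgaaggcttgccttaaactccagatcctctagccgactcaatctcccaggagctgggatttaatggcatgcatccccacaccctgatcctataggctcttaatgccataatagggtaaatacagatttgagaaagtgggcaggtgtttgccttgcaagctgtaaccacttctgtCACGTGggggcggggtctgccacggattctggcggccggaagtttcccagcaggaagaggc
Windows of 300 bases, 250 before and 50 after the start site, were given for 9 of the 10 members (10 windows, with 2 for Psat1). Aldh1l2 had no window and could not be searched. The windows were searched on both strands for 3 motifs, with 1 match in all. The E-box CACGTG was in 1 window, that of Tyms, and in 7.15% of the 32851 mouse promoter windows. TGATGNAA, the core of the C/EBP-ATF response element that ATF4 binds, was in 0 of the 10 and in 3.97% of all windows. TTTNGCGC, the core of an E2F element, was in 0 of the 10 and in 1.38% of all windows. These counts describe the letters in these windows only.

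Normalised reads summed to 27727202 to 29611064 per sample over all genes. In its own line the targeted gene overlapped between the groups, with log2 fold changes of -0.066 for Rptor, -0.12 for Tfam and -0.0055 for Cox10 (limma adjusted p = 0.57, 0.472 and 0.979). Without Rptor-deficient replicate 1 the Rptor difference was -0.16 and passed (limma adjusted p = 0.0435). A whole lung with an epithelial deletion, and controls that the methods give as heterozygous, does not test the labels by this measure. Deficient means a sample labelled so. All 8 epithelial markers listed (such as Epcam, Cdh1 and Nkx2-1) were detected in every line, with means in controls between 1377 and 6192 reads. Their summed level was 31691 to 32496 reads in controls and 13168 to 17440 in deficient lungs of the Rptor line, where 8 of 8 were lower. For Tfam it was 29715 to 31313 and 24465 to 27141, with 3 of 8 lower. For Cox10 it was 23835 to 24316 and 16377 to 22181, where 0 of 8 passed although 8 of 8 had negative log2 fold changes. Of all genes 18.2% (Rptor), 2.63% (Tfam) and 0.335% (Cox10) passed as lower. Fewer cells of a type and less RNA per cell cannot be told apart in whole lungs, and the part of epithelial content in the results below was not tested. Cox10-deficient replicate 3 stood apart in endothelial markers (34990 reads summed, against 21441 to 24024 in the other 5 samples of its line). Rptor-deficient replicate 1 stood apart in genes of the integrated stress response, Trib3 among them (21236 reads summed, against 15246 to 16957 in the other 5 samples of its line). Calls of named genes that change without either are therefore given below.

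Values are reads normalised by the authors' size factors, given as mean ± SD (n = 3). Log2 fold changes compare deficient with control lungs on the log2(value + 1) scale with their standard error (SE), and p-values are from limma, adjusted over all genes tested in a line. In the Rptor line 7 of the 10 enzymes were lower in deficient lungs, where 18.2% of 14940 genes were, and 1 was higher, where 16.6% of genes were. In the Tfam line 5 of 10 were higher, where 2.03% of 15053 genes were, and 1 was lower, where 2.63% were. Among Cox10 lungs 0 of 10 passed the limma threshold, while 0.141% of 14937 genes passed as higher and 0.335% as lower. There 2 of the 10, Shmt2 and Aldh1l2, had an unadjusted p below 0.05, as did 13% of all genes. Deficient and control values did not overlap for 9 of 10 enzymes in the Rptor line, 8 of 10 in the Tfam line and 3 of 10 in the Cox10 line, against 50.3%, 22.8% and 21.3% of all genes. The median log2 fold change of the 10 was -0.38 (Rptor), 0.26 (Tfam) and -0.017 (Cox10), and that of all genes was 0.0083, 0.00098 and 0.0014.

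**Figure D1:**
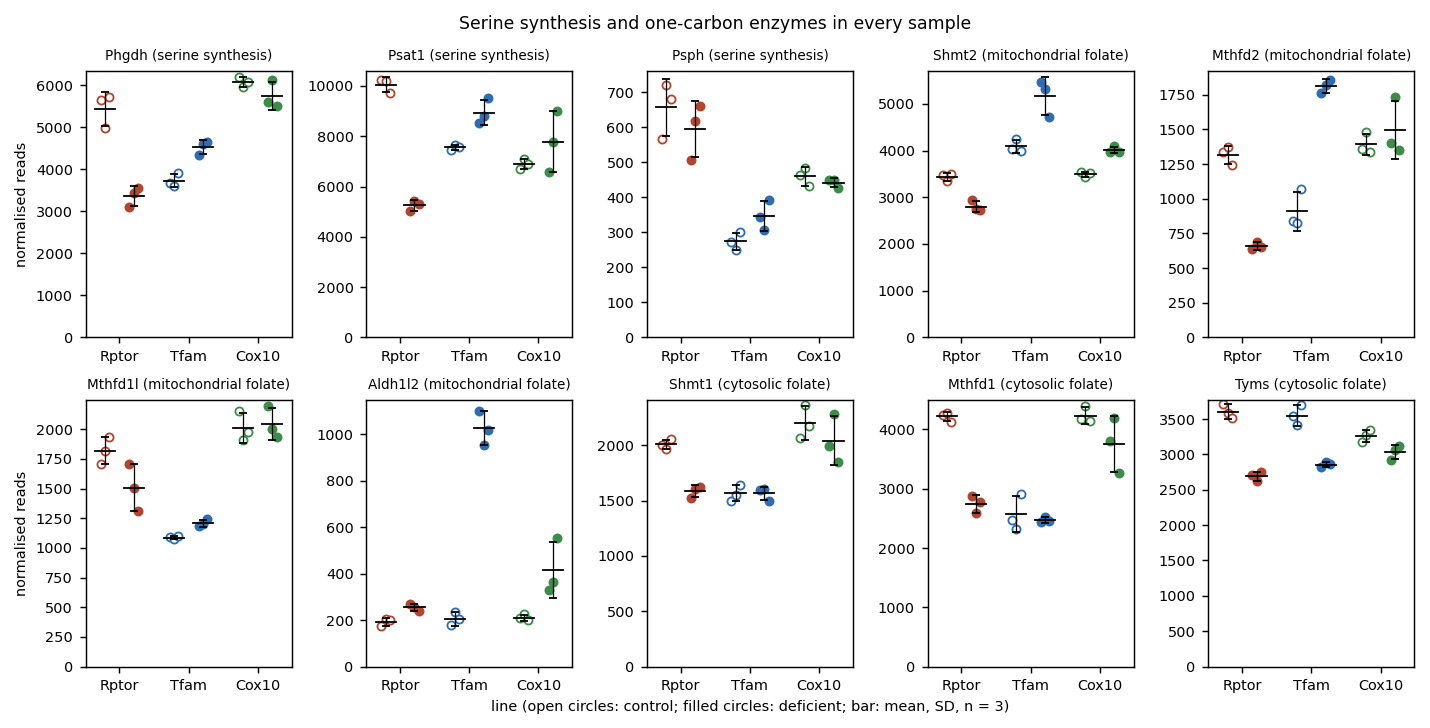
Normalised reads (y axis, from 0, a scale of its own in each panel) of the 10 enzymes in each of the 18 samples by line (x axis), with open circles for control and filled circles for deficient lungs and bars for the mean and SD of 3 samples. Mthfd2 was lower than control in all 3 Rptor-deficient and higher in all 3 Tfam-deficient lungs, and Aldh1l2 reached 955.9 to 1102 reads in Tfam-deficient lungs.

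Of the 3 serine synthesis enzymes, 2 (Psat1 and Phgdh) were lower in Rptor-deficient lungs and the same pair was slightly higher in Tfam-deficient lungs, while Psph passed in neither line. Psat1, the transaminase of the pathway, had 10239, 10204 and 9722 reads in the Rptor controls and 5019, 5426 and 5305 in deficient lungs. The groups were far apart, and the mean went from 10055 ± 289 to 5250 ± 209 (log2 fold change -0.94 with SE 0.0524 and adjusted p = 2.35e-05 by limma). Phgdh, which encodes the first enzyme, had 5642, 4983 and 5718 reads in the Rptor controls and 3103, 3439 and 3567 in deficient lungs. Every deficient lung was below every control, and the log2 fold change was -0.69, with SE 0.0747 and adjusted p = 0.000402 by limma. Psph, the phosphatase of the last step, overlapped between the groups at 656.7 ± 80.8 and 595.9 ± 79.4 reads, and its log2 fold change of -0.14 did not pass (95% interval -0.43 to 0.15, limma adjusted p = 0.417).

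Among Tfam lungs Phgdh had 3672, 3614 and 3908 reads in controls and 4337, 4604 and 4646 in deficient lungs (log2 fold change 0.28 with SE 0.0573 and adjusted p = 0.0188 by limma). Psat1 had 7470, 7642 and 7553 reads in controls and 8532, 8788 and 9506 in deficient lungs (log2 fold change 0.24 with SE 0.0586 and adjusted p = 0.0419 by limma). For both genes the groups did not overlap, and the rises were small beside the falls in the Rptor line. Psph went from 274.3 ± 24.8 to 347 ± 42.7 reads, also without overlap, but did not pass (log2 fold change 0.33, limma adjusted p = 0.143). The Phgdh call was lost without control replicate 1 or 2 or deficient replicate 2 or 3 (limma adjusted p = 0.0674 to 0.0911). The Psat1 call was lost without any of these or deficient replicate 1 (limma adjusted p = 0.0663 to 0.167), without the filter (0.059), in a fit of all 18 samples (0.124) and with Xist as a covariate (0.0571).

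Among Cox10 lungs none of the 3 serine synthesis enzymes passed the limma threshold. Phgdh had 6075 ± 123 reads in controls and 5744 ± 330 in deficient lungs, a log2 fold change of -0.082 with a 95% interval of -0.21 to 0.041. Psat1 spread widely in the deficient lungs, with 6596, 7777 and 8996 reads against 6692, 7089 and 6910 in controls. Psph had 459.8 ± 26.4 and 441.5 ± 13.5 reads. All 3 genes overlapped between the groups.

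The mitochondrial folate enzymes held both the largest fall and the largest rise among the 10. Mthfd2, the mitochondrial dehydrogenase and cyclohydrolase, had 1334, 1372 and 1246 reads in Rptor controls and 636.3, 689.2 and 651.2 in deficient lungs. Its mean was thus 0.5 of control, and the log2 fold change was -1.0, with SE 0.0704 and adjusted p = 5.75e-05 by limma. The Tfam controls had 836.1, 822.6 and 1069 Mthfd2 reads and the deficient lungs 1762, 1818 and 1860. Here the mean was 1.99 times control (log2 fold change 1.01 with SE 0.0941 and adjusted p = 0.000166 by limma). For Cox10 the groups overlapped, with 1357, 1481 and 1336 reads in controls and 1402, 1735 and 1351 in deficient lungs (log2 fold change 0.097, 95% interval -0.13 to 0.32, limma adjusted p = 0.675).

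Aldh1l2, the mitochondrial formyltetrahydrofolate dehydrogenase, was the member with positive log2 fold changes and no overlap in all 3 lines. The Tfam controls had 177.8, 235.5 and 203.1 reads and the deficient lungs 1102, 955.9 and 1018. This was 4.99 times control (log2 fold change 2.32 with SE 0.108 and adjusted p = 8.55e-07 by limma). The Cox10 controls had 207.4, 224.9 and 198.9 reads and the deficient lungs 328.3, 363 and 551.6. Each deficient lung was above each control, and deficient replicate 3 was the highest. The difference of 0.94 on the log2 scale (SE 0.186) did not pass (limma adjusted p = 0.0953), but without deficient replicate 3 it was 0.71 and passed (limma adjusted p = 0.0172). It also passed in a fit of all 18 samples (limma adjusted p = 0.00203) and with Xist as a covariate (0.0296). In the Rptor line Aldh1l2 had 172.5, 204.8 and 199.9 reads in controls and 267.2, 257.5 and 238.1 in deficient lungs (log2 fold change 0.40 with SE 0.117 and adjusted p = 0.028 by limma). That call was lost without control replicate 1 or 3 or deficient replicate 1 or 2 (limma adjusted p = 0.0528 to 0.0934) and with Xist as a covariate (0.0581).

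Shmt2, the mitochondrial serine hydroxymethyltransferase, was lower in Rptor-deficient and higher in Tfam-deficient lungs. It had 3485, 3343 and 3496 reads in Rptor controls and 2933, 2743 and 2723 in deficient lungs (log2 fold change -0.30 with SE 0.054 and adjusted p = 0.00386 by limma). The Tfam controls had 4028, 4257 and 3984 reads and the deficient lungs 5462, 5329 and 4710 (log2 fold change 0.33 with SE 0.0665 and adjusted p = 0.0162 by limma). The groups did not overlap in either line, and the Tfam call was lost without control replicate 1 or deficient replicate 1 or 2 (limma adjusted p = 0.0729 to 0.079). The 3 Cox10 controls had 3536, 3434 and 3516 reads and the deficient lungs 3972, 4092 and 3973. These groups also did not overlap, but the difference of 0.20 on the log2 scale (SE 0.0419) did not pass (limma adjusted p = 0.117), except without deficient replicate 3 (0.0468).

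Mthfd1l, which releases formate from mitochondria, passed in none of the 3 lines with limma. In the Rptor line it had 1709, 1819 and 1934 reads in controls and 1708, 1501 and 1312 in deficient lungs. The highest deficient value lay just under the lowest control, and the log2 fold change of -0.28 missed the threshold (limma adjusted p = 0.0544). It passed without deficient replicate 1 (log2 fold change -0.37, limma adjusted p = 0.0073), in a fit of all 18 samples (0.0102) and with Xist as a covariate (0.0465). It did not pass in the other 5 fits that left out a sample, where the log2 fold change was as small as -0.18 (without deficient replicate 3, limma adjusted p = 0.144) and the adjusted p up to 0.164. The Tfam effect was 0.15 on the log2 scale (95% interval 0.024 to 0.28, limma adjusted p = 0.2), without overlap, and the Cox10 effect was 0.023 (-0.13 to 0.18), with overlap.

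The cytosolic enzymes were all lower in Rptor-deficient lungs, and in the Tfam line only Tyms passed among the 3. Mthfd1, the trifunctional cytosolic enzyme, had 4250, 4280 and 4131 reads in Rptor controls and 2879, 2583 and 2770 in deficient lungs. The log2 fold change was -0.62 for Mthfd1 (SE 0.0567, limma adjusted p = 0.000191), -0.42 for Tyms (SE 0.0511, limma adjusted p = 0.000634) and -0.34 for Shmt1 (SE 0.0561, limma adjusted p = 0.00249). Shmt1, the cytosolic serine hydroxymethyltransferase, went from 2007 ± 43.8 to 1584 ± 55 reads. None of the 3 genes overlapped between the groups in that line.

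Among Tfam lungs Shmt1 was at 1565 ± 73.6 reads in controls and 1567 ± 58.7 in deficient lungs, and Mthfd1 at 2569 ± 304 and 2474 ± 44.9. Both overlapped, with 95% intervals of the log2 fold change of -0.13 to 0.14 and -0.22 to 0.13. Tyms, thymidylate synthase, had 3539, 3410 and 3699 reads in Tfam controls and 2821, 2888 and 2860 in deficient lungs. Every deficient lung was below every control, and the log2 fold change was -0.31, with SE 0.0546 and adjusted p = 0.00781 by limma. The tables list a Tyms pseudogene, Tyms-ps, in a row of its own, so reads could be split between the pair. For Cox10 lungs Tyms had 3178, 3271 and 3339 reads in controls and 2920, 3059 and 3115 in deficient lungs, without overlap, but did not pass (log2 fold change -0.11, limma adjusted p = 0.39). Shmt1 and Mthfd1 overlapped there, with log2 fold changes of -0.11 and -0.18 (limma adjusted p = 0.58 and 0.424). Without deficient replicate 3 these were -0.046 and -0.083, and without deficient replicate 2 they were -0.20 and -0.26.

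**Figure D2:**
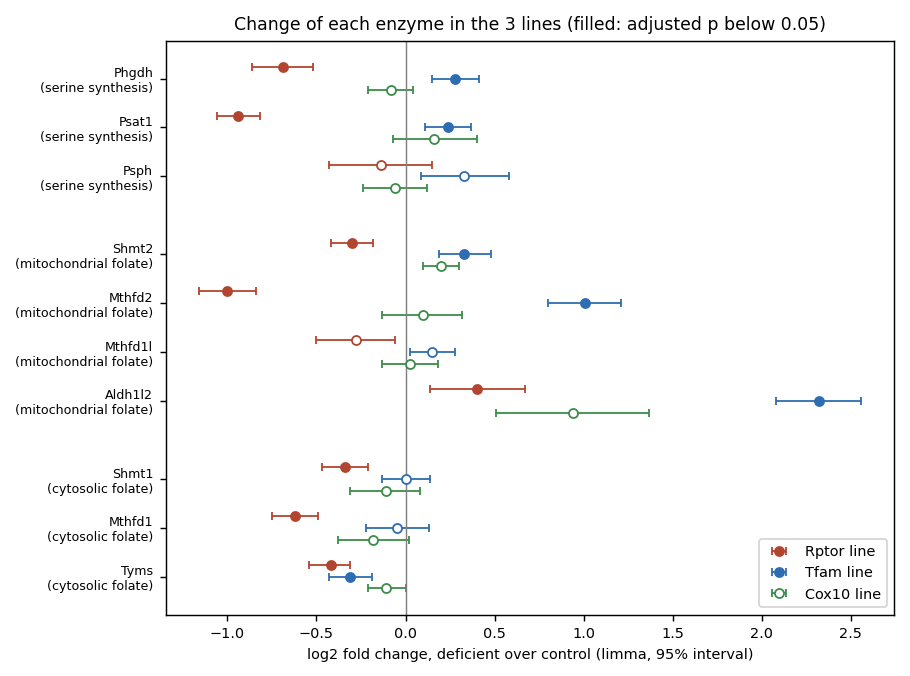
Log2 fold change of deficient over control lungs (x axis) for each enzyme (y axis, grouped by role) in the 3 lines, with points for the limma estimate, bars for its 95% interval and filled points for an adjusted p below 0.05. Mthfd2 lies at -1.0 for Rptor and 1.01 for Tfam, and Aldh1l2 lies right of 0 in every line.

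To ask whether the lines differed, the effect in a line was compared with that in another in a model of all 18 samples. The Rptor and Tfam effects differed for 8 of the 10 enzymes, where 11.2% of 14550 genes did. Mthfd2 had the largest difference, with a log2 effect 2.00 lower in the Rptor line (log2 difference -2.00, 95% interval -2.29 to -1.71, limma adjusted p = 1.43e-07). Aldh1l2 followed with -1.92 (-2.37 to -1.47, limma adjusted p = 3.32e-05), although it was not lower than control in either line. Psat1 (-1.18), Phgdh (-0.97), Shmt2 (-0.63), Mthfd1 (-0.57), Mthfd1l (-0.43) and Shmt1 (-0.34) made up the rest. The Mthfd1l and Shmt1 differences (limma adjusted p = 0.0211 and 0.034) were lost in 3 and 8 of the 18 fits that left out a sample, with adjusted p of up to 0.0554 and 0.0797. Psph missed the threshold at -0.48 (limma adjusted p = 0.0672), and passed in a fit blocked on replicate number (0.0105) and in 3 of 18 fits that left out a sample. Tyms, lower in both lines, had a difference of -0.11 with a 95% interval of -0.25 to 0.026 (limma adjusted p = 0.282).

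The Rptor and Cox10 effects differed for 6 of the 10 enzymes, where 7.48% of genes did. The differences were -1.10 for both Psat1 (limma adjusted p = 1.82e-05) and Mthfd2 (0.000131), -0.61 for Phgdh, -0.50 for Shmt2, -0.44 for Mthfd1 and -0.32 for Tyms. The Mthfd1 difference (limma adjusted p = 0.0269) was lost in 7 of 18 fits that left out a sample, with an adjusted p of up to 0.0712. Differences that missed the threshold passed for Mthfd1l without Rptor-deficient replicate 1 (-0.40, limma adjusted p = 0.0252), for Shmt1 without Cox10-deficient replicate 3 (-0.30, limma adjusted p = 0.0475) and for Aldh1l2 with Xist as a covariate (-0.63, limma adjusted p = 0.0306). The Tfam and Cox10 effects differed for 2 of the 10, where 0.055% of genes (8 of 14550) did. Aldh1l2 had a log2 effect 1.38 higher in the Tfam line (95% interval 0.93 to 1.83, limma adjusted p = 0.0127) and Mthfd2 one 0.91 higher (0.62 to 1.20, limma adjusted p = 0.0111). Both are mitochondrial folate enzymes. The Aldh1l2 difference was lost in 5 of 18 fits that left out a sample (adjusted p of up to 0.0706) and with the replicate block (0.0973), and the Mthfd2 difference in 3 of 18 (up to 0.0543).

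Mitochondrial and cytosolic folate enzymes were contrasted within each sample, as the mean log2 value of the 4 mitochondrial enzymes minus that of the 3 cytosolic ones, a score given without a test. The values are reads not divided by exon length, so only changes of the score are read and not its size. In the Tfam line the score was -1.39, -1.25 and -1.40 in controls and -0.24, -0.32 and -0.27 in deficient lungs. The score was thus 1.07 higher in deficient lungs, or 2.1-fold, with no overlap. For Cox10 the score was -1.32, -1.41 and -1.41 in controls and -0.99, -1.03 and -0.78 in deficient lungs. This was a difference of 0.45 on the log2 scale, in the same direction and again without overlap, although no single enzyme passed the test there. In the Rptor line the score was -1.54, -1.44 and -1.44 in controls and -1.25, -1.26 and -1.42 in deficient lungs, a difference of 0.17, also without overlap.

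These differences were smaller without Aldh1l2. Without it the difference was -0.063 for Rptor, with overlapping groups, and 0.62 for Tfam and 0.24 for Cox10, without overlap. The Rptor value was -0.0087 without deficient replicate 3 and -0.094 without deficient replicate 1. In the Tfam-deficient lungs this score was 0.02, -0.0043 and 0.015, and in Tfam controls -0.61, -0.57 and -0.64.

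The paralogous pairs that catalyse the same step in the 2 compartments were compared as log2 ratios within each sample, also without a test. Mthfd2 relative to Mthfd1 differed in all 3 lines without overlap, by -0.38 (Rptor), 1.05 (Tfam) and 0.28 (Cox10) as a log2 ratio, deficient minus control. This log2 ratio in Tfam lungs was -1.57, -1.49 and -1.44 in controls and -0.47, -0.47 and -0.40 in deficient lungs. Shmt2 relative to Shmt1 differed by 0.043 in the Rptor line, where both genes were lower and the ratios overlapped, and by 0.33 and 0.31 in the Tfam and Cox10 lines, without overlap. Mthfd1l relative to Mthfd1 differed by 0.34, 0.20 and 0.20, with overlap in the Cox10 line. The Tfam value was 0.12 without control replicate 3, and leaving out a sample gave 0.14 to 0.30 in the Cox10 line. Within mitochondria, Aldh1l2 relative to Mthfd2 was higher by 1.40 (Rptor), 1.32 (Tfam) and 0.84 (Cox10), without overlap in any. Without Cox10-deficient replicate 3 the last difference was 0.55.

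**Figure D3:**
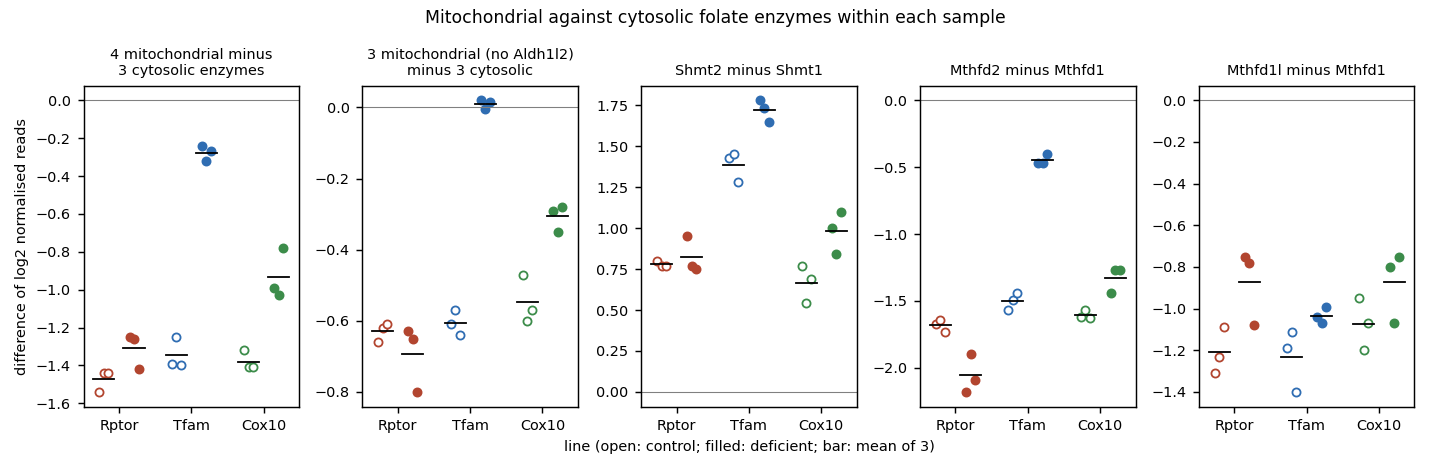
Differences of log2 normalised reads within each sample (y axis, a scale of its own in each panel) by line (x axis), for the mitochondrial against the cytosolic folate enzymes, the same without Aldh1l2, and 3 enzyme pairs, with open circles for control and filled circles for deficient lungs and bars for the mean of 3. The score of all enzymes moves from -1.35 to -0.27 in the Tfam line, and Mthfd2 minus Mthfd1 moves down for Rptor and up for Tfam and Cox10.

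Levels were compared between genes per kilobase (kb) of exon, on the linear scale. In the Rptor controls Psat1 (2364 ± 67.9 reads per kb) and Phgdh (2192 ± 163) were the highest and overlapped, followed by Shmt2 (1107 ± 27.5), Mthfd1 (950.1 ± 17.8), Tyms (592.4 ± 17), Shmt1 (516.8 ± 11.3), Mthfd1l (410.5 ± 25.3), Mthfd2 (377.8 ± 18.5), Psph (151.7 ± 18.7) and Aldh1l2 (25.65 ± 2.32). Of these neighbours Mthfd1l and Mthfd2 also overlapped, and the others did not. Aldh1l2 was the lowest in the controls of all 3 lines, at 25.65, 27.38 and 28.04 reads per kb. In Tfam-deficient lungs it passed Psph (136.6 ± 9.75 against 80.17 ± 9.86), and Mthfd2 (520 ± 14.2) passed both Tyms (469.1 ± 5.53) and Shmt1 (403.5 ± 15.1). In Rptor-deficient lungs Phgdh (1356 ± 96.4) and Psat1 (1234 ± 49.1) were again the highest and overlapped. Control levels also varied between lines. Psat1 led in Tfam controls (1776 ± 20.2 against 1501 ± 62.7 for Phgdh) and Phgdh in Cox10 controls (2444 ± 49.5 against 1621 ± 46.8), but the tables were normalised separately and no test was made across them.

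Beyond the 10 enzymes, 54 further genes of folate transport, folate interconversion, glycine cleavage, purine and thymidylate synthesis, the methionine cycle and serine transport were listed. Of the 47 tested in the Rptor line, 17 were lower and 4 higher in deficient lungs, with a median log2 fold change of -0.24. Of 48 tested in the Tfam line 3 were higher and 0 lower (median 0.024), and 10, or 20.8%, had an unadjusted p below 0.05, against 17.4% of all genes. Of 48 in the Cox10 line 0 passed with limma (median -0.057), and 12, or 25%, had an unadjusted p below 0.05, against 13% of all genes. The percentages of all genes given above for the 10 enzymes apply here too.

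In the Rptor line falls were found in several of the listed groups. In purine synthesis 5 of 6 were lower, among them Ppat, the amidotransferase that starts the pathway, which had 3203, 2987 and 2867 reads in controls and 2038, 2192 and 2284 in deficient lungs (log2 fold change -0.48 with SE 0.0661 and adjusted p = 0.00117 by limma). In thymidylate and deoxynucleotide supply 4 of 8 were lower, among them Rrm2, a ribonucleotide reductase subunit, which went from 5917 ± 210 to 3912 ± 215 reads (log2 fold change -0.60 with SE 0.0584 and adjusted p = 0.000259 by limma). In glycine cleavage 2 of 4 were lower, and in the methionine cycle and transsulfuration 2 of 5. Cth, the cystathionine lyase that makes cysteine, went from 264.9 ± 38.4 to 179.3 ± 46.3 reads (log2 fold change -0.58, limma adjusted p = 0.0488). That call was lost with the replicate number as a block (limma adjusted p = 0.0558), without the filter (0.0648), with Xist as a covariate (0.0741) and in 5 of 6 fits that left out a sample (all but deficient replicate 1), with an adjusted p of up to 0.165. Without deficient replicate 2 the log2 fold change was -0.38.

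The largest rises of the list in the Rptor line were in genes of other steps. Sardh, the mitochondrial sarcosine dehydrogenase, had 1814, 1732 and 1894 reads in controls and 2544, 2543 and 2567 in deficient lungs (log2 fold change 0.49 with SE 0.0554 and adjusted p = 0.000476 by limma). Sfxn3, of the sideroflexin family of mitochondrial serine transporters, went from 653.4 ± 25.2 to 893 ± 23.2 reads (log2 fold change 0.45 with SE 0.0694 and adjusted p = 0.00186 by limma). Folr2, a folate receptor known from macrophages, went from 70.1 ± 15.4 to 115.9 ± 28.8 reads (log2 fold change 0.71, limma adjusted p = 0.0456). That call was lost without control replicate 1 or 2 or deficient replicate 1 or 3 (limma adjusted p = 0.0892 to 0.15) and without the filter (0.0653). Of 4 macrophage markers tested, 4 were higher in Rptor-deficient lungs, where 16.6% of all genes were. Their summed level was 1551 to 1784 reads in controls and 2989 to 3401 in deficient lungs. The part of this level in the Folr2 result was not tested.

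The 3 genes that passed among Tfam lungs were all higher. Cth had 105.7, 97.01 and 109 reads in controls and 262, 232.3 and 264.9 in deficient lungs (log2 fold change 1.28 with SE 0.114 and adjusted p = 0.000109 by limma). It was thus higher in the Tfam line and lower in the Rptor line. Slc6a9, a glycine transporter, went from 625.2 ± 26.7 to 929.8 ± 93.5 reads (log2 fold change 0.57 with SE 0.0846 and adjusted p = 0.00302 by limma). Purine synthesis (0 of 6) and thymidylate supply (0 of 8) had no gene that passed in this line, with log2 fold changes of -0.11 to 0.087 and -0.20 to 0.075.

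**Figure D4:**
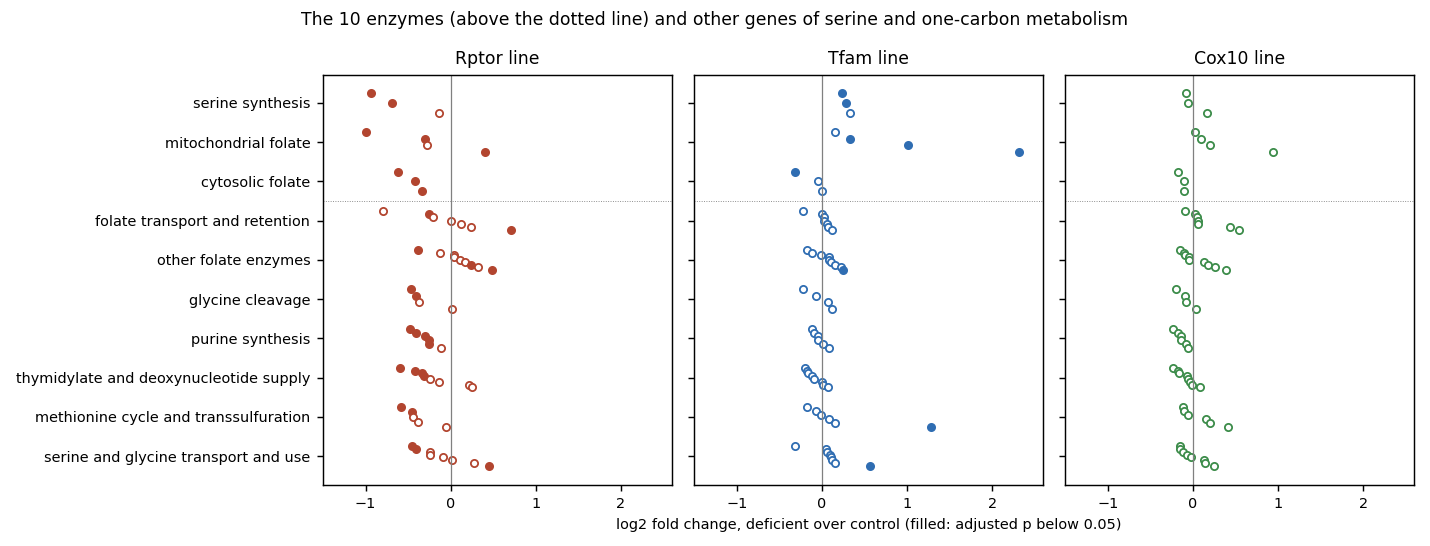
Log2 fold change of deficient over control lungs (x axis, 1 panel per line) for the 10 enzymes (above the dotted line) and the tested genes of 7 further groups of serine and one-carbon metabolism (y axis), with 1 circle per gene and filled circles for a limma adjusted p below 0.05. The Rptor panel has 17 filled circles left of 0 below the dotted line and the Tfam panel has none there.

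Genes of the integrated stress response were examined beside the enzymes. Atf4 itself had 5343, 5442 and 5471 reads in Rptor controls and 3162, 4172 and 4038 in deficient lungs (log2 fold change -0.53 with SE 0.0973 and adjusted p = 0.00424 by limma), and its log2 fold changes of 0.19 and 0.024 in the Tfam and Cox10 lines did not pass (limma adjusted p = 0.086 and 0.864). Asns, the asparagine synthetase known as an ATF4 target, had 1153, 1531 and 1461 reads in Rptor controls and 756.7, 870.5 and 819.2 in deficient lungs (log2 fold change -0.75 and adjusted p = 0.00156 by limma). It went from 1037 ± 50.7 to 3074 ± 83.8 reads in Tfam lungs (log2 fold change 1.57 and adjusted p = 3.3e-07 by limma). Asns thus shared its directions with Mthfd2. Cox10 lungs had Asns at 1512 ± 91.5 and 2304 ± 322 reads, without overlap, at a limma adjusted p of 0.0544 (log2 fold change 0.60). It passed without deficient replicate 3 (log2 fold change 0.64, limma adjusted p = 0.0254) and in the fit of all 18 samples (0.00277).

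Trib3, a pseudokinase of the stress response, went from 58.18 ± 9.37 to 271.4 ± 41.7 reads in the Tfam line (log2 fold change 2.20, limma adjusted p = 3.2e-05). Among Cox10 lungs it went from 42.7 ± 4.39 to 102.4 ± 10.1 (log2 fold change 1.24, limma adjusted p = 0.0312), a call lost without control replicate 1, 2 or 3 or deficient replicate 2 (limma adjusted p = 0.103 to 0.234) and in the fit of all 18 samples (0.0674). In Rptor-deficient lungs it had 181.5 reads in replicate 1 and 49.51 and 46.44 in the others, against 57.69 to 62.83 in controls. Its log2 fold change there was 0.32 and did not pass, and without replicate 1 it was -0.31 (limma adjusted p = 0.62 and 0.236). Ddit3, a pro-apoptotic factor of the response, was higher in the Rptor line (log2 fold change 0.44, limma adjusted p = 0.0417), a call lost with the replicate block (0.0511), without the filter (0.0549), with Xist as a covariate (0.0857) and in 4 of 6 fits that left out a sample (all but those without control replicate 3 or deficient replicate 3), with an adjusted p of up to 0.13. It did not pass in the Tfam and Cox10 lines (log2 fold change 0.34 and 0.21), but passed in the Tfam line without control replicate 3 (0.49, limma adjusted p = 0.0295). Of the whole list of 18, 16 were tested in the Rptor line (3 higher, 2 lower), 17 in the Tfam line (10 higher) and 16 in the Cox10 line (1 higher). Over all genes 16.6% were higher and 18.2% lower in the Rptor line. In the Tfam and Cox10 lines 2.03% and 0.141% of all genes were higher.

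Proliferation genes moved with the enzymes in the Rptor line. Of 16 listed, 15 were lower in Rptor-deficient lungs (median log2 fold change -0.35, summed level 150110 to 158231 reads in controls and 122003 to 123503 in deficient lungs), 1 was for Tfam (median -0.11) and 0 were for Cox10 with limma (median -0.12). Mki67, a marker of cycling cells, had a log2 fold change of -0.33 in the Rptor line (limma adjusted p = 0.0093), and -0.23 and 0.02 in the Tfam and Cox10 lines (limma adjusted p = 0.203 and 0.909). Pcna, the replication clamp, had -0.35 in the Rptor line with overlapping groups (limma adjusted p = 0.0446), a call lost in 4 of 6 fits that left out a sample (control replicate 1 or 2, deficient replicate 2 or 3), with an adjusted p of up to 0.133, and also without the filter (0.0588) and with Xist as a covariate (0.0807). Mki67 passed in the Tfam line without control replicate 3 (-0.33, limma adjusted p = 0.0224). The log2 fold changes were negative for 13 of the 16 genes in the Tfam line and 15 of the 16 in the Cox10 line. The part of proliferation in the enzyme levels was not tested.

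Other cell type markers also moved in the Rptor line. Of 8 mesenchymal markers 5 were higher (median log2 fold change 0.73), as were 5 of 6 endothelial markers (0.34), where 16.6% of all genes were. In the Tfam and Cox10 lines 0 of either list passed with limma. The epithelial markers had log2 fold changes of -1.89 to -0.45 in that line (median -1.05). The enzymes that were lower there had -1.0 (Mthfd2), -0.94 (Psat1), -0.69 (Phgdh), -0.62 (Mthfd1), -0.42 (Tyms), -0.34 (Shmt1) and -0.30 (Shmt2). In the Tfam line, where epithelial markers had log2 fold changes of -0.55 to 0.0087, Phgdh, Psat1, Shmt2, Mthfd2 and Aldh1l2 were higher. In the Cox10 line, where epithelial markers lay between -0.49 and -0.13, Shmt2 and Aldh1l2 were above control in every deficient lung. Deficient and control values did not overlap for 21.3% of all genes in that line. The part of epithelial content in these values was not tested.

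For each role the genes outside the members with the most similar pattern were named by their Pearson correlation over the 18 samples with the mean of the role, each sample taken as log2 values minus the mean of the controls of its line. These are descriptions with no test, over samples that fall into 6 groups, and the genes compared are read from the same libraries. For serine synthesis the highest were Lpcat1 (0.958), Atf4 (0.956), Cars (0.949), Cldn7 (0.947) and Ubxn2a (0.945) of 14540 genes. For the mitochondrial enzymes they were Asns (0.978), Cth (0.953), Chac1 (0.951), Atf5 (0.936) and Slc7a5 (0.927). For the cytosolic enzymes they were Hnrnpf (0.979), Nol10 (0.975), Nup50 (0.974), Rcc2 (0.971) and Ppa1 (0.968). No gene was among the 5 highest of more than 1 role.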

How the data were processed

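RNA-seq of whole lungs at 14.5 dpc was analysed in 3 lines (3 control and 3 deficient samples each). The study's methods state TRIzol and a column kit for RNA and a BGISEQ machine, and per the labels the authors' processing notes name Trim Galore, HISAT2, featureCounts, DESeq2 and mm10, with versions not given in the sources used here. The authors deposited a normalised signal, the read count of a gene divided by a sample's size factor, and every value was a whole multiple of a step of its sample (tolerance 0.01 steps). They also deposited fold changes and p-values of their own comparisons, which were not used. Groups came from the sample titles.

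Values were analysed as log2(value + 1), which understates changes of low genes. A gene entered a line's test if 3 or more of the 6 samples had a value of 10 or more. Tests were run with limma 3.58.1 in R 4.3.3 (mean-variance trend, two-sided, Benjamini-Hochberg adjustment, threshold 0.05), each line on its own. Differences between lines were tested in a model of 6 groups, on 14550 genes tested in all lines. The steps lay between 0.9775 and 1.02, and because steps so near 1 did not pass the check set for recovering reads, no count test was run. The labels do not say which replicates come from separate animals, so p-values measure the spread between these samples. Coordinates, exon lengths (union of exons, GENCODE, GRCm38) and RefSeq windows are of the build of the files.

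Replicate numbers come from the titles. In the Rptor line same-numbered deficient and control samples deviated together from their group means (correlations of 0.221, 0.33 and 0.259). There each control correlated most with the deficient sample of its own number, so the numbers may pair the samples. This was not so for every number in the Tfam (-0.312, -0.207 and 0.151) and Cox10 lines (0.447, 0.202 and 0.0488). The p-values are from fits without this pairing unless a replicate block is named.

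The members and the gene lists were chosen with earlier results of these data known. Named genes were the 10 members, per line the 3 largest rises and 3 largest falls of the pathway list among genes past the threshold without overlap, Atf4, Ddit3, Asns, Trib3, Mki67, Pcna, the targeted genes and 5 genes of the most similar pattern per role. A gene that the rule names is not reported here. Marker lists were epithelium, mesenchyme, smooth muscle, endothelium, erythroid cells, macrophages, mesothelium and neurons and glia. Alternatives were other scalings (trimmed mean of M-values, library totals), other filters (none, a mean of at least 50), a pseudocount of 0.1, the replicate block, a fit of all 18 samples, Xist as a covariate and leaving out each sample. The limma code was tested on simulated data.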

Additional observations from a re-analysis of the deposited data

Results flagged for a closer look

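The effect of the deletion differed between lines by a test of the difference itself for 16 values, and no group was large enough for a test of single outlying samples. Between the Rptor and Tfam lines the log2 effects of Phgdh (-0.97), Psat1 (-1.18), Shmt2 (-0.63), Mthfd2 (-2.00), Mthfd1l (-0.43), Aldh1l2 (-1.92), Shmt1 (-0.34) and Mthfd1 (-0.57) were lower in the Rptor line. Between the Rptor and Cox10 lines those of Phgdh (-0.61), Psat1 (-1.10), Shmt2 (-0.50), Mthfd2 (-1.10), Mthfd1 (-0.44) and Tyms (-0.32) were lower in the Rptor line. Between the Tfam and Cox10 lines those of Mthfd2 (0.91) and Aldh1l2 (1.38) were higher in the Tfam line.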

How the results depend on the processing

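Of 14 calls of a member in a line, 10 held in every alternative run, fits that left out a sample included, and of 16 calls of a difference between lines 11 did. None of these calls changed direction. The planned edgeR and DESeq2 fits were not run, because the steps of the deposited values did not pass the check set for recovering reads. In the Cox10 line 1 member passed in the fit of all 18 samples and 1 with Xist as a covariate, and 2 pathway genes passed in the fit of all 18 samples, against 0 in each case. With the replicate block 1 member differed between the Tfam and Cox10 lines, against 2, the Psph difference between the Rptor and Tfam lines passed, the Cth and Ddit3 calls in the Rptor line were lost, and among Cox10 lungs Asns passed (limma adjusted p = 0.0391) and Trib3 was lost (0.0566). With the block 8, 6 and 0 members passed in the Rptor, Tfam and Cox10 lines, as without it. Counts over all genes moved by over 1.5 times in the Cox10 line (71 genes, 327 in the fit of all 18 samples and 117 with Xist) and the Tfam line (702 genes, 399 in the fit of all 18), and the Tfam and Cox10 effects differed for 8 genes, or 5 with the block.

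Leaving out a sample gave 3 to 6 members called in the Tfam line (3 without control replicate 1 or deficient replicate 2), 0 to 2 in the Cox10 line (2 without deficient replicate 3), 0 to 2 with a difference between the Tfam and Cox10 lines, and 0 to 2 pathway genes in the Cox10 line. Over all genes it gave 363 to 1123 in the Tfam line and 3 to 251 in the Cox10 line. The Rptor and Tfam effects differed for 844 to 2377 genes (1626 with all samples, 844 without Tfam control replicate 2), the Rptor and Cox10 effects for 678 to 1815 (1089, and 1815 without Cox10-deficient replicate 3) and the Tfam and Cox10 effects for 2 to 10 (8, and 2 without Tfam-deficient replicate 3). Signs changed for values that did not pass. In the Tfam line these were Shmt1 (-0.029 to 0.038) and Mthfd1 (-0.12 to 0.045), in the Cox10 line Mthfd2 (-0.014 to 0.17), Mthfd1l (-0.029 to 0.073), Atf4 (-0.013 to 0.06), Mki67 (-0.038 to 0.059) and Cox10 (-0.045 to 0.041, and 0.0045 with library totals), and in the Rptor line Trib3 (-0.31 to 0.66). The Rptor minus Cox10 difference of Psph (-0.19 to 0.027), the Tfam minus Cox10 difference of Psat1 (-0.037 to 0.19) and the Rptor line's Shmt2 to Shmt1 ratio (-0.02 to 0.08) did so too. The causes were not tested.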

Other observations

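Within groups, after each group's mean was removed, log2 values of Mthfd2 varied with those of Mthfd1 (Pearson r = 0.791 over 18 samples) and Shmt1 (0.705), while Psph and Shmt2 varied in opposite directions (-0.726). These are the most extreme of 45 pairs among the members and are given as a description without a test. Both genes of a pair are read from the same libraries, and 6 group means were removed. Erythroid markers (0 of 3 tested passed in each line with limma), smooth muscle markers (3 of 4 lower and 1 higher in the Rptor line, 3 of 4 lower in the Tfam line), mesothelial markers (2 of 3 higher in the Rptor line) and neuronal and glial markers (0 of 4 in each line) were also measured. The shares of all genes given above for the enzymes apply to these counts too.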
